A study of Mus musculus with 6 samples.

Results

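The genes of the major histocompatibility complex (MHC) and of antigen presentation were examined in hearts of sham and tail-suspended mice. They were chosen by name: every gene whose name on the array begins with H2- (the mouse MHC), together with B2m, Tap1, Tap2, Tapbp, Cd74 and Ciita. This gave 47 genes read by 60 probes, of 36163 gene names and 55681 probes in all. All probes of a gene were kept, since the class I genes are closely related in sequence and a probe may also bind transcripts of a neighbour. Of the 60 probes, 35, from 29 genes, gave a signal well above background on all arrays of sham, of tail-suspension or of both, and were tested.

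Total RNA from cardiac muscle of male C57BL/6 mice was labelled with Cy3 and hybridised to 1-colour Agilent arrays, 3 for sham and 3 for tail-suspension. Tail-suspension raises the hindquarters and is used to simulate weightlessness; it lasted 28 days, and sham mice were housed alike but not suspended. The labels give the mice as 10 weeks old at the start and list 11 weeks as the age of every sample, so the age at collection is not settled. The series describes 3 mice per group, and the labels name no drug in either group. The share of probes with a signal well above background was 50.94 to 53.44% per array, and the cardiomyocyte markers Myh6, Tnnt2, Tnni3, Actc1, Myl2 and Ryr2 were detected in this sense on all 6 arrays. A level below is a probe's log2 processed intensity minus the log2 of its array's 75th percentile, so it can be compared between arrays but not between probes. A change is the tail-suspension mean minus the sham mean of these levels. Because whole tissue was used, fewer cells of a type and less RNA per cell cannot be told apart.

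MHC molecules hold peptides at the cell surface for T cells to read. Class I molecules consist of a heavy chain and the light chain beta-2-microglobulin, are made by nearly all nucleated cells, and carry peptides cut by the proteasome and brought into the endoplasmic reticulum by the TAP transporter. Class II molecules consist of an alpha and a beta chain, are made mainly by dendritic cells, macrophages and B cells, and carry peptides from engulfed proteins; the invariant chain Cd74 guards their groove until H2-DM exchanges it for peptide. In the healthy heart, class II is found mainly on resident immune cells, and class I is found on endothelial and other cells.

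The promoters of both classes share short elements, and 3 promoters are shown because their genes, class II in 2 of them and class I in the third, are the ones compared below. Each window covers the 150 bases before the RefSeq transcription start on GRCm38.p6, 5′ to 3′ on the strand of the gene. Capitals mark matches to the letters of the Y box, CTGATTGG or its reverse complement CCAATCAG. H2-Aa lies at chr17:34287824-34287973 on the minus strand, H2-Eb1 at chr17:34305717-34305866 on the plus strand, and H2-D1 at chr17:35262944-35263093 on the plus strand.
H2-Aa: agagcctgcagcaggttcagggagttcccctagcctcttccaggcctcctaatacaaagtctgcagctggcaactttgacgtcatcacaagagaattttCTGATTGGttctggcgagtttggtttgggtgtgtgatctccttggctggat
H2-Eb1: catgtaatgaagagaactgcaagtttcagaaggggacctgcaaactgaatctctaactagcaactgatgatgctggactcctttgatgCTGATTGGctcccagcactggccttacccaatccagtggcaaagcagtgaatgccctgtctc
H2-D1: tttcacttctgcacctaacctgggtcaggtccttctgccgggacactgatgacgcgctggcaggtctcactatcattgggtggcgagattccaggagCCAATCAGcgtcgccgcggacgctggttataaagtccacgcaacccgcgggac

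The letters of the Y box were searched on both strands of the 300-base promoters (250 bases before to 50 after the start), of which 33 of the 47 genes had at least 1. A match was present in 17 of these 33 genes, compared with 4.1% of all 32851 promoters in the RefSeq table. Its first base lay at -51 from the start in H2-Aa and at -62 in H2-Eb1, on the strand of the gene in both, and at -53 in H2-D1, on the opposite strand. H2-Q6 and H2-T23, which are also class I genes, carried a match on the opposite strand at -55 and -52. Another element, the X2 core TGACG, began at -74 in H2-Aa but at -101 in H2-D1, farther from the match. Whether the matches in class I promoters are the same element as the Y box of class II was not tested. The X1 core AACNGATG was present in H2-Eb1, H2-Eb2, H2-DMb1, H2-DMb2 and H2-M10.4 (5 of 33 genes, against 2.32% of all promoters). The interferon-response core GAAANNGAA was present in B2m and H2-T23 (2 of 33 genes, against 8.56% of all promoters). These are matches of letters only and say nothing of which factors were bound in these hearts.

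One member probe was higher and 2 were lower in tail-suspended hearts than in sham hearts at an adjusted p under 0.05 (limma with Benjamini-Hochberg adjustment over 28032 tested probes). The probe that was higher read H2-Q10, and those that were lower read B2m and H2-Ob. The H2-Q10 probe was tested only because of its signal in tail-suspended hearts and the H2-Ob probe only because of its signal in sham hearts, and with signal well above background required on all 6 arrays, B2m alone was called. Across all tested probes, 10.8% were higher and 9.57% were lower by the same rule. At an unadjusted p under 0.05, 10 of the 35 member probes passed, 1 higher and 9 lower, compared with 38.1% of all tested probes. The arrays of the groups did not overlap for 2 member probes that were lower, B2m and H2-Ob (21.9% of all tested probes), and for 2 that were higher, H2-Q10 and Tapbp (22.1%). By the methods' t-test, 4 member probes, those for H2-Q10, Tapbp, H2-Ob and B2m, passed without adjustment, compared with 33.9% of all tested probes, and none passed after Benjamini-Hochberg adjustment, compared with 9.92%. The median change was 0.02 over the 35 member probes and -0.0049 over all tested probes. Tail-suspension replicates 2 and 3 occupied a row of the slide that held no sham array, so a fit with the row as a block rests on tail-suspension replicate 1 against sham. It gave changes of 2.19 for H2-Q10, -0.58 for B2m and -0.94 for H2-Ob, with limma adjusted p-values of 0.142, 0.165 and 0.239. The plot of the fitted changes shows that the members did not move as a single group: the class II probes all lay below 0, and most class I probes lay close to it.

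**Figure D1:**
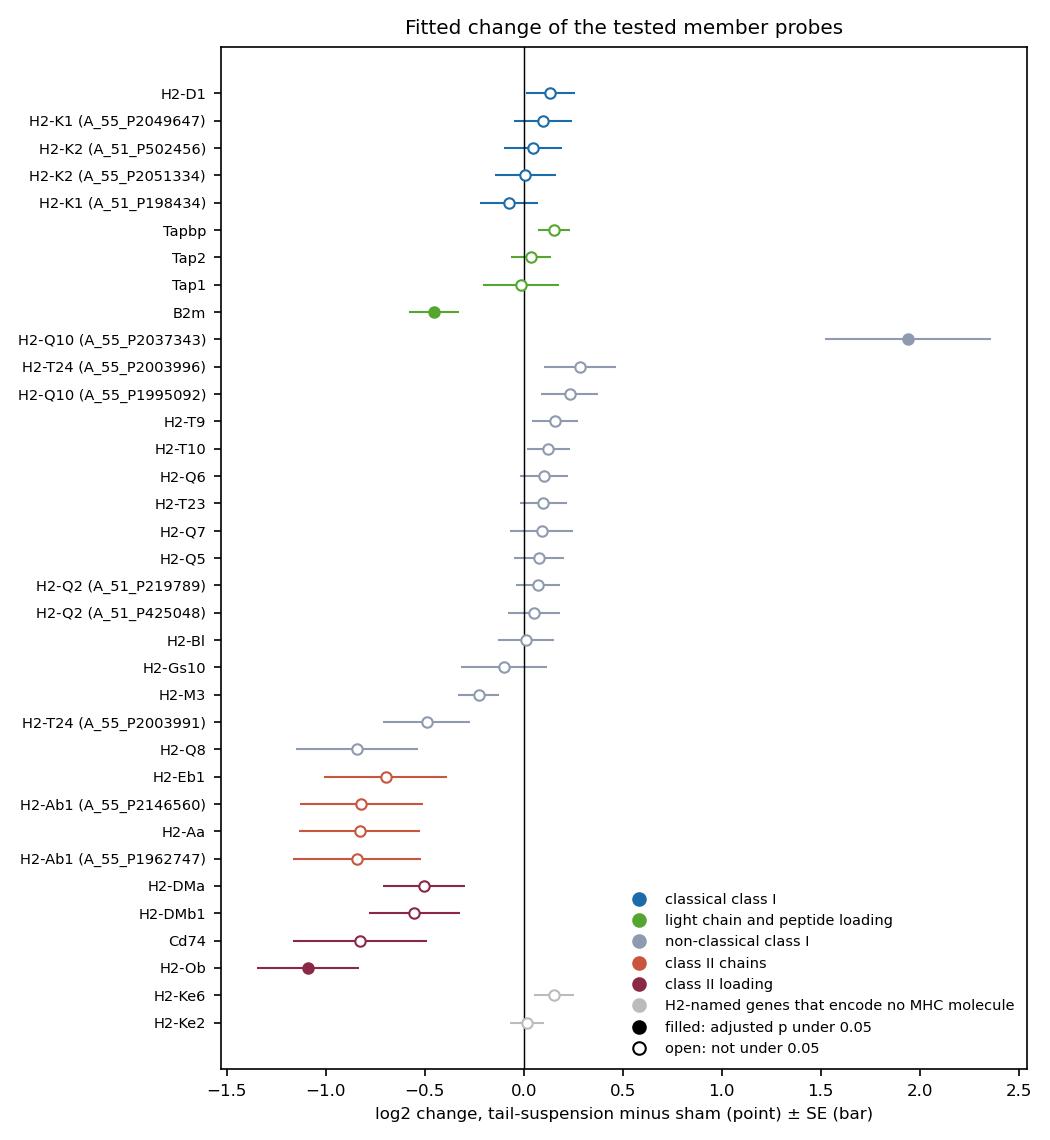
Fitted log2 change (tail-suspension minus sham, n = 3 arrays each) of the 35 tested member probes, with bars of 1 SE and colours for the role of the gene; filled points passed the adjusted threshold. All 8 class II probes lie between -1.09 and -0.50, the 5 classical class I probes lie between -0.08 and 0.13, and one of the H2-Q10 probes stands apart at 1.94.

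All 8 tested probes of class II chains and class II loading genes had lower means in tail-suspended hearts, with a median change of -0.82, but only the probe for H2-Ob passed the adjusted threshold. The other 7 had adjusted p-values from 0.0987 to 0.151. In all 8 probes, tail-suspension replicates 1 and 3 lay below every sham array. In 7 of the 8, tail-suspension replicate 2 lay within the sham range, and H2-Ob was the exception. Among all 35 tested member probes, replicates 1 and 3 lay below every sham array in 12. The share of all tested probes with these patterns was not counted, so they cannot be called particular to class II.

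H2-Aa encodes the alpha chain of the I-A molecule. Its level was 1.68, 1.18 and 1.26 on sham arrays 1, 2 and 3, and 0.36, 1.22 and 0.05 on tail-suspension arrays 1, 2 and 3. Tail-suspension replicate 2 lay between the sham arrays, and the change of -0.83 (SE 0.306, limma adjusted p = 0.0987) did not pass. H2-Ab1 encodes the beta chain of the same molecule and was read by 2 probes that share 41 identical bases, so they are not independent. The brighter one had levels of 4.77, 4.18 and 4.42 in sham and 3.42, 4.32 and 3.09 in tail-suspended hearts, a change of -0.84 (SE 0.324, limma adjusted p = 0.108). The other gave a change of -0.82 (limma adjusted p = 0.105), with the same order of arrays.

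H2-Eb1 encodes the beta chain of the I-E molecule, which C57BL/6 mice do not assemble because their alpha chain gene H2-Ea is defective. Its levels were 4.69, 3.93 and 4.23 in sham and 3.38, 4.21 and 3.16 in tail-suspended hearts, a change of -0.70 (SE 0.311, limma adjusted p = 0.151). The array lists the alpha chain gene as H2-Ea-ps, a pseudogene name, and its probe was not well above background on any array, as was that of H2-Eb2. Thus all transcripts of class II chains that could be measured, from H2-Aa, H2-Ab1 and H2-Eb1, were ordered alike over the tail-suspended hearts, with replicate 2 highest and replicate 3 lowest. The classical class I probes described below had the same order over these hearts, so it was not particular to class II.

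Cd74, the invariant chain, followed the chains it escorts. Its levels were 3.67, 3.14 and 3.49 in sham and 2.41, 3.37 and 2.04 in tail-suspended hearts, and the change of -0.83 (SE 0.337, limma adjusted p = 0.123) did not pass. H2-DMa and H2-DMb1, the chains of the peptide exchanger H2-DM, had smaller changes. For H2-DMa, levels were -0.61, -1.24 and -1.02 in sham and -1.67, -1.13 and -1.57 in tail-suspended hearts, with a change of -0.50 (SE 0.207, limma adjusted p = 0.127). For H2-DMb1, levels were 0.48, -0.02 and 0.16 in sham and -0.47, 0.12 and -0.69 in tail-suspended hearts, with a change of -0.55 (SE 0.23, limma adjusted p = 0.129). In both, replicate 2 of tail-suspension again lay within the sham range.

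**Figure D2:**
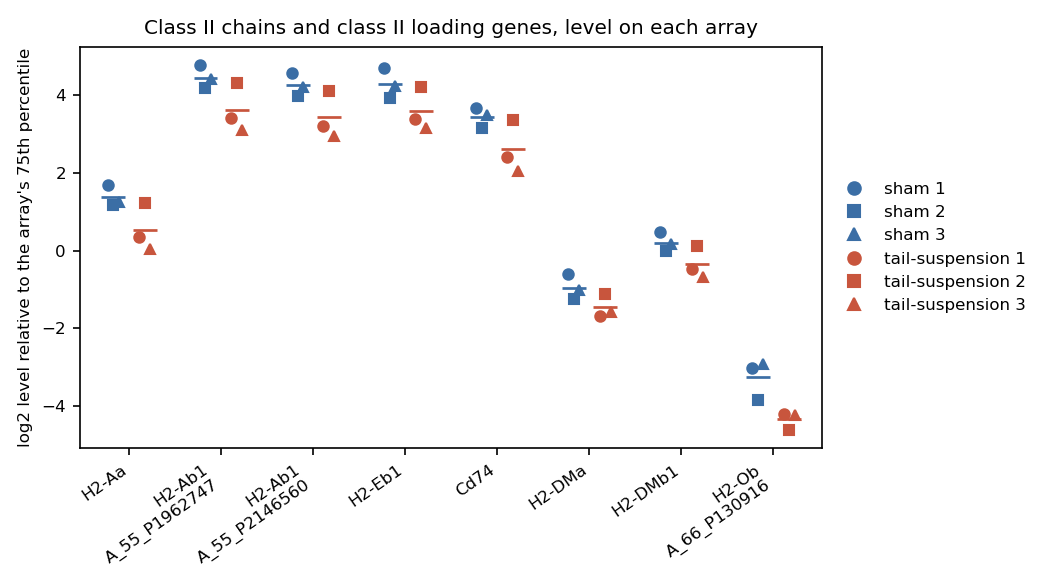
Level of each tested class II probe on each array (log2, relative to the array's 75th percentile); symbols give the replicate number, colours the group, and horizontal lines the group means. In every gene but H2-Ob, the square of tail-suspension replicate 2 sits among the sham arrays, and replicates 1 and 3 sit below all of them.

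Leaving out tail-suspension replicate 2 raised the number of member probes that were lower at the adjusted threshold from 2 to 9, and 6 of the 8 class II probes passed, with a median class II change of -1.09. In that fit 9.01% of all tested probes were lower. Leaving out tail-suspension replicate 1 or 3 left no member probe past the threshold in either direction, and the median class II change was then -0.72 and -0.56. In these fits 5.16% and 3.12% of all tested probes were lower, and 5.61% and 3.98% were higher. Without sham replicate 1 or 3, no class II probe passed, while 3.78% and 6.88% of all tested probes were lower. The number of class II calls therefore depended on which arrays were included. The median class II change varied between -0.56 and -1.09 over the 6 fits that leave out 1 array.

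H2-Ob encodes the beta chain of H2-O, which restrains H2-DM and is known mainly from B cells. The probe that passed spans an exon junction (chr17:34380481-34380849, mm9, plus strand, 369 bases of genome for 60 bases of probe), and its sequence is shown because it is the only one of the gene's probes that could be tested.
H2-Ob A_66_P130916: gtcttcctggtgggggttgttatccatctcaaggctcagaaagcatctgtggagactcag
Its levels were -3.03, -3.84 and -2.92 in sham and -4.20, -4.61 and -4.23 in tail-suspended hearts. The signal was well above background on 3 sham arrays but on only 1 of the tail-suspension arrays, so the probe was tested through the group in which it was brighter and the tail-suspension level is not well measured. The fitted change was -1.09 (SE 0.258, limma adjusted p = 0.032), and it was -0.50 with normexp background correction (limma adjusted p = 0.0268). A second H2-Ob probe was well above background on 2 sham arrays and on no tail-suspension array and was not tested (mean levels -4.09 and -5.34). The third was near the bottom of the scale on all 6 arrays, at -6.58 and -6.59. The call was lost in 5 of the 6 fits that leave out 1 array, all but the one without sham replicate 2, with limma adjusted p-values from 0.0665 to 0.0959.

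The partner chain H2-Oa had levels of -3.69, -4.996 and -4.67 in sham and -4.71, -4.96 and -4.97 in tail-suspended hearts and was well above background on 1 sham array only, so it was not tested. H2-DMb2, at -5.82, -5.90 and -6.36 in sham and -5.83, -6.50 and -6.55 in tail-suspended hearts, was not well above background on any array. The same was true of Ciita, the transactivator that switches on class II genes, at -5.05, -5.78 and -4.74 in sham and -5.48, -5.98 and -5.51 in tail-suspended hearts. Its probe shares a run of 26 identical bases with a probe for Odz1. The class II transactivator could therefore not be compared between the groups, although the class II chains themselves were bright.

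Class I heavy chains showed a different picture. Of 39 probes from 29 class I genes, 21 probes from 16 genes were tested. Their median change was 0.08, 16 lay above 0 and 5 below, and only one of the H2-Q10 probes passed the adjusted threshold.

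H2-K1 and H2-D1 encode the classical class I heavy chains of this strain. The brighter H2-K1 probe had levels of 5.31, 4.995 and 5.36 in sham and 5.07, 5.37 and 4.99 in tail-suspended hearts, a change of -0.08 (SE 0.145, limma adjusted p = 0.737). The other H2-K1 probe changed by 0.10 (limma adjusted p = 0.66), so the sign differed between the probes. H2-D1 had levels of 4.76, 4.56 and 4.73 in sham and 4.76, 5.03 and 4.66 in tail-suspended hearts, a change of 0.13 (SE 0.124, limma adjusted p = 0.468). For both genes the groups overlapped, and the change was about the size of its SE or less. The probes for H2-K2 changed by 0.01 and 0.05. The array lists H2-K2 as a non-coding transcript, and its probes are counted by name among the 5 classical probes here and in the figures. In all 5 classical probes replicate 2 was the highest tail-suspended heart and lay above every sham array, so the array that was sham-like in class II was the brightest in class I.

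The class I probes are not independent readings, because their targets are paralogues. Of the 35 tested member probes, 10 share a run of at least 20 identical bases with another probe on the array, the class II probes for H2-Ab1 among them. The following runs are shown because each occurs unbroken in probes for 2 different member genes.
H2-T23 and H2-K1, 29 bases: tggagctgtggtggcttttgtgatgaaga
H2-K2 and H2-Q7, 28 bases: tctcctgtgacatccagagccctcagtt
H2-Q10 and H2-T3, 22 bases: ttgtggaggaaataaatggcag
A probe of H2-Q6 shares 54 bases with a probe for a transcript that the array lists without a gene symbol. The signals of the H2-T23 probe and the dimmer H2-K1 probe may therefore contain each other's transcripts, as may those of the dimmer H2-K2 probe and the H2-Q7 probe.

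Most non-classical class I genes lay close to 0. The probes for H2-Q2, H2-Q5, H2-Q6, H2-Q7, H2-T9, H2-T10, H2-T23 and H2-Bl changed by 0.01 to 0.16, and H2-Gs10, listed as H2-Q4 in RefSeq, changed by -0.10 (limma adjusted p = 0.767). H2-M3, which presents formylated peptides of bacteria and mitochondria, had a change of -0.23 (SE 0.104, limma adjusted p = 0.157). None of these passed the adjusted threshold. The probes for H2-M1, H2-M2, H2-M5, H2-M9, H2-M10.1, H2-M10.2, H2-M10.3, H2-M10.4, H2-M10.6, H2-Q1, H2-T3 and H2-T18 were not well above background on any array, and that for H2-M11 was on 1 array of each group. H2-Ke2 and H2-Ke6 carry H2- names but encode no MHC molecule; they changed by 0.02 and 0.15 and did not pass.

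**Figure D3:**
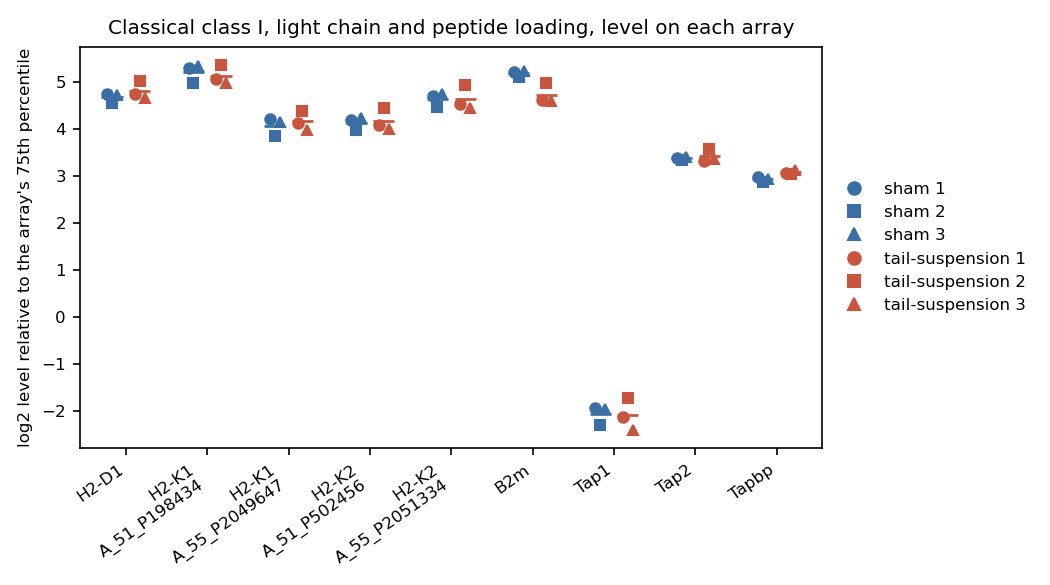
Level of the classical class I, light chain and peptide loading probes on each array (log2, relative to the array's 75th percentile), with symbols for replicate, colours for group and lines for group means. The groups overlap for H2-D1, H2-K1, H2-K2, Tap1 and Tap2, all 3 tail-suspended hearts lie below the sham hearts for B2m, and all 3 lie above them for Tapbp.

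B2m, the light chain of class I, was lower in tail-suspended hearts. Its levels were 5.22, 5.13 and 5.24 in sham and 4.62, 4.997 and 4.61 in tail-suspended hearts. The change was -0.45 (SE 0.128, limma adjusted p = 0.0497), just under the threshold, and the groups did not overlap. Before scaling, the processed intensities were 11960, 11150 and 11400 in sham and 8363, 12010 and 9146 in tail-suspended hearts, so replicate 2 was lower than sham only after scaling to its brighter array. The call was lost in 14 of 18 alternative fits, with adjusted p-values up to 0.165.

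The peptide loading genes did not pass the threshold. Tap1 had levels of -1.95, -2.32 and -1.97 in sham and -2.13, -1.74 and -2.40 in tail-suspended hearts (change -0.01, SE 0.192, limma adjusted p = 0.963). Tap2, its partner in the peptide transporter, had levels of 3.39, 3.35 and 3.42 in sham and 3.32, 3.59 and 3.36 in tail-suspended hearts (change 0.04, SE 0.1, limma adjusted p = 0.805). Tapbp encodes tapasin, which holds class I at the transporter. Its levels were 2.98, 2.87 and 2.95 in sham and 3.08, 3.05 and 3.13 in tail-suspended hearts, and although the groups did not overlap, the change of 0.15 (SE 0.0815, limma adjusted p = 0.214) did not pass.

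H2-Q10 encodes a class I molecule known as a secreted product of liver. The probes for it disagreed. One, at chr17:35611449-35611508 (mm9, plus strand), passed the threshold, and the other, at chr17:35610036-35610095, did not. The second is shown because it is the brighter one.
H2-Q10 A_55_P1995092: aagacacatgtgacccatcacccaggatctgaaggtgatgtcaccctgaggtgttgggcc
The probe that passed had levels of -4.96, -5.35 and -6.58 in sham and -3.45, -4.10 and -3.53 in tail-suspended hearts (fitted change 1.94, SE 0.418, limma adjusted p = 0.025). Its signal was well above background on none of the sham arrays and on all 3 tail-suspension arrays, so the sham level is not well measured. With the sham side set at the lowest signal well above background on each array, tail-suspension was 1.61-fold higher in processed intensity. This is not a lower bound under other background corrections, as the normexp value below shows. The brighter probe had levels of 0.20, -0.21 and -0.05 in sham and 0.20, 0.40 and 0.03 in tail-suspended hearts, and its change of 0.23 (SE 0.146, limma adjusted p = 0.287) did not pass. With background corrected by normexp, the change of the first probe was 0.14 (limma adjusted p = 0.412). Ttr, a liver and choroid plexus marker, was higher in tail-suspended hearts (change 2.64, limma adjusted p = 0.00794); Alb and Apoa1 were not well above background on any array, and Serpina1a had a change of 0.12 (limma adjusted p = 0.896). The part of liver transcripts in the H2-Q10 signal was not tested.

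H2-Q8 and one of the H2-T24 probes stood relative to sham as most class II probes did. Tail-suspension replicate 2 lay within the sham range, and replicates 1 and 3 lay below every sham array. Both probes were chosen for this after their values were seen. H2-Q8 had levels of 0.56, -0.03 and 0.54 in sham and -0.80, 0.18 and -0.84 in tail-suspended hearts, a change of -0.84 (SE 0.308, limma adjusted p = 0.0958). The H2-T24 probe A_55_P2003991 had levels of -2.98, -3.14 and -3.15 in sham and -3.76, -3.07 and -3.92 in tail-suspended hearts, a change of -0.49 (limma adjusted p = 0.15). The other H2-T24 probe changed by 0.285 (limma adjusted p = 0.293). The opposite signs of the H2-T24 probes leave no single value for that gene.

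**Figure D4:**
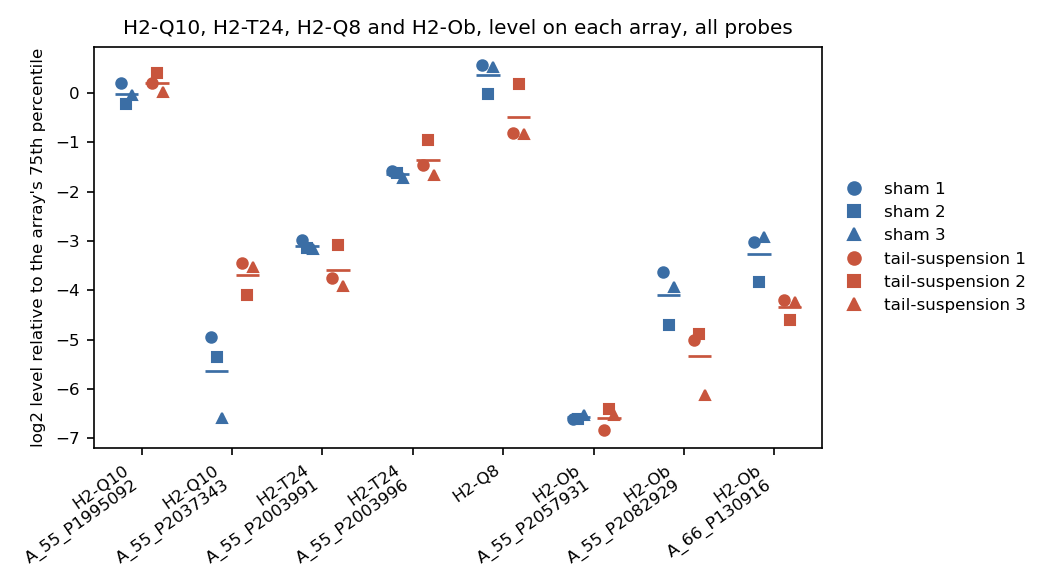
Level on each array of every probe for H2-Q10, H2-T24, H2-Q8 and H2-Ob (log2, relative to the array's 75th percentile), with symbols for replicate, colours for group and lines for group means. Of the H2-Q10 probes, the dimmer one alone separates the groups, the H2-T24 probes have means that differ in opposite directions, and each H2-Ob probe was well above background on at most 1 tail-suspension array.

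Genes that make, trim and load class I peptides were read from lists outside the members, by the brightest tested probe per gene. In the list of proteasome subunits and trimming peptidases, 11 of 11 genes were tested, none passed, and 10 of 11 had changes below 0 with a median of -0.19. The interferon-inducible subunits Psmb8 and Psmb9 changed by -0.17 (limma adjusted p = 0.439) and -0.35 (limma adjusted p = 0.205). None of the 5 folding and loading genes passed (median change 0.03), and none of the 8 tested class I-like proteins did (median change 0.09).

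In the list of class II processing genes, 7 were tested and 1 was higher, compared with 10.8% of all tested probes. Ctsl, a lysosomal protease that degrades the invariant chain mainly in thymic epithelium, was higher in tail-suspended hearts, at 5.53, 5.40 and 5.21 in sham and 6.10, 6.25 and 6.60 in tail-suspended hearts (change 0.94, SE 0.155, limma adjusted p = 0.0123). The call was lost in 3 of 18 alternative fits, without sham replicate 2 among them (limma adjusted p = 0.0504). Ctss, the protease with this role in other antigen-presenting cells, had a change of 0.85 that did not pass (SE 0.41, limma adjusted p = 0.178), with tail-suspension replicate 3 well above the rest. March1, a ubiquitin ligase that takes class II off the cell surface, had a change of -0.20 by its brightest probe (limma adjusted p = 0.66) but 0.77 by another (limma adjusted p = 0.0352), so its direction is not settled. The median change of this list was -0.02.

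Of 20 tested regulators of MHC genes, 1 was lower and 1 was higher, compared with 9.57% and 10.8% of all tested probes. Ifngr2, a chain of the interferon-gamma receptor, was lower, with levels of 5.48, 5.35 and 5.36 in sham and 4.63, 4.40 and 4.25 in tail-suspended hearts (change -0.97, SE 0.12, limma adjusted p = 0.00538; 0.0636 with slide row as a block, the only alternative of 18 that lost the call). Every tail-suspended heart lay below every sham heart, replicate 2 included, unlike the class II genes. The other receptor chain, Ifngr1, had a change of 0.23 (limma adjusted p = 0.126), and the probe for interferon-gamma itself, Ifng, was not tested because of low signal. Irf2, known as a repressor of interferon-response genes, was higher (change 0.40, SE 0.105, limma adjusted p = 0.0426), a call that was lost in 10 of 18 alternative fits with adjusted p-values up to 0.18. Nfkb1, a subunit of NF-kappa-B, had a change of 0.004 by its brightest probe (limma adjusted p = 0.983) and of -0.32 by another (limma adjusted p = 0.0364).

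The class I transactivator Nlrc5 had levels of -1.02, -1.09 and -0.77 in sham and -1.62, -1.02 and -1.65 in tail-suspended hearts, a change of -0.47 (SE 0.191, limma adjusted p = 0.124). Its second probe changed by -0.33 (limma adjusted p = 0.2). Irf1, an activator of interferon-response genes, changed by -0.33 (limma adjusted p = 0.121). For Nlrc5 and Irf1 tail-suspension replicate 2 lay within the sham range, as it did for class II. Rfx5 was not tested because of low signal, and Rfxank and Rfxap, the other subunits of the factor that binds the X box, changed by 0.21 and -0.05 and did not pass. Among co-stimulatory genes, Cd40 was lower (change -0.65, SE 0.0986, limma adjusted p = 0.00934) and Cd86 was higher (change 0.34, SE 0.0955, limma adjusted p = 0.0482) of 6 tested. Over all tested probes, 9.57% were lower and 10.8% were higher. The Cd86 call was lost in 14 of 18 alternative fits, with adjusted p-values up to 0.351, and the Cd40 call in 1, with slide row as a block.

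Markers of the cells that carry class II moved in different directions. Beside the counts in the marker lists stand the shares over all tested probes, 10.8% higher and 9.57% lower. In the B cell list, 2 of 3 tested genes were lower, among them Cd79a, which encodes a signalling chain of the B cell receptor, with a change of -0.86 (limma adjusted p = 0.0196; the call was lost in 7 of 18 alternative fits). Cd79b, its partner chain, had a change of -0.49 (limma adjusted p = 0.261), and Ms4a1 and Pax5 were not tested. For a summed level, here and below, each level was converted from log2 to intensity relative to the 75th percentile before adding, so the brightest probe weighs most. The summed level of the tested B cell markers was 0.457 to 0.768 in sham and 0.323 to 0.517 in tail-suspended hearts. In the dendritic cell list, 2 of 4 tested genes were higher, Flt3 by 1.25 (limma adjusted p = 0.0224) and Cd209a by 1.303 (limma adjusted p = 0.0222), whereas Zbtb46 changed by 0.02 and Itgax by 0.13. Flt3 and Cd209a were well above background on 1 sham array each and were tested through their signal in tail-suspended hearts. With normexp background correction their changes were 0.07 and 0.19 (limma adjusted p = 0.679 and 0.34), and each call was lost in 8 of 17 alternative fits. The summed level of the dendritic cell markers was 0.283 to 0.452 in sham and 0.45 to 0.605 in tail-suspended hearts.

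None of 7 tested macrophage markers passed, and 6 of 7 had changes above 0, with C1qa at 0.75 (limma adjusted p = 0.058). Their summed level was 30.4 to 40.5 in sham and 34.5 to 54.1 in tail-suspended hearts. Of the T cell list, 2 of 5 genes, Cd3e and Cd4, were tested and neither passed (changes -0.17 and -0.27), and their summed level was 2.42 to 2.63 in sham and 1.96 to 2.25 in tail-suspended hearts. Neutrophil markers were higher for 3 of 4 tested genes, S100a8, S100a9 and Retnlg. Retnlg was well above background on no sham array, so it was tested only through its signal in tail-suspended hearts and its sham level is not well measured. Of 5 endothelial markers, Kdr and Tie1 were lower. Of the cardiomyocyte markers, Actc1 was lower by its brightest probe, and a dimmer Myh6 probe was lower (change -1.47, limma adjusted p = 0.00957) where the brightest was not (change -0.09, limma adjusted p = 0.603).

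For the erythroid markers Alas2, Hba-a1 and Hbb-b1, tail-suspension replicates 1 and 3 lay far below sham and replicate 2 lay nearer to it; the fourth, Slc4a1, had a change of -0.19 with overlapping groups. None of the 4 tested passed. The haemoglobin gene Hba-a1 had levels of 8.86, 8.25 and 8.25 in sham and 6.21, 7.90 and 6.74 in tail-suspended hearts (change -1.50, SE 0.425, limma adjusted p = 0.0506). The summed level was 428 to 689 in sham and 106, 344 and 154 in tail-suspended hearts. Per array, the median deviation of the 8 class II probes from their sham means was -0.98, -0.13 and -1.21 in tail-suspension replicates 1, 2 and 3, that of the erythroid markers was -2.27, -0.55 and -1.72, that of the B cell markers was -1.01, -0.59 and -0.99, and that of the macrophage markers was 0.23, 0.09 and 0.90. The part of blood content and of B cells, dendritic cells and macrophages in the class II levels was not tested.

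**Figure D5:**
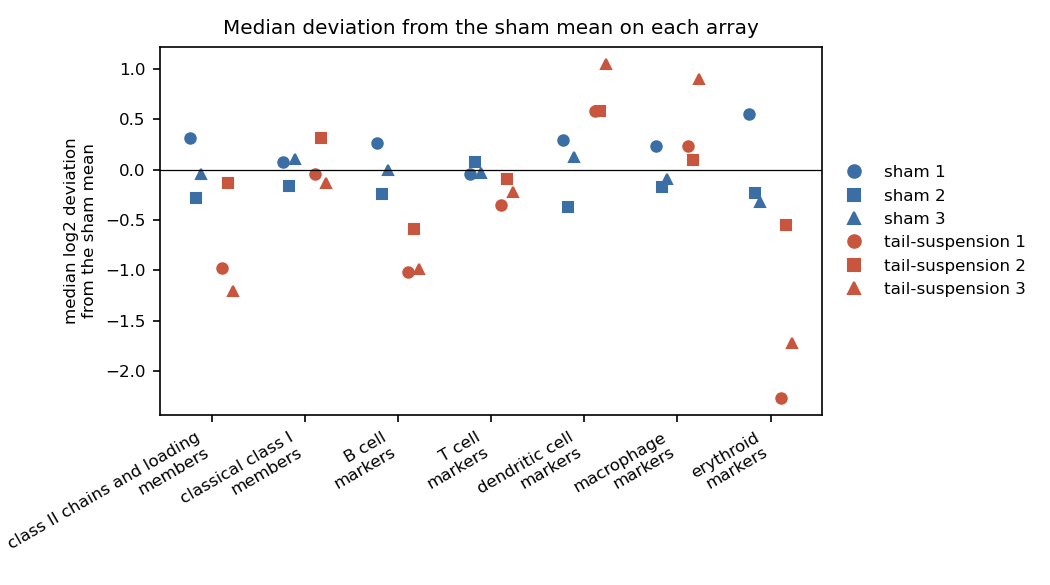
Median deviation from the sham mean on each array (log2), for the 8 tested class II member probes, the 5 classical class I member probes and the tested genes of 5 marker lists; symbols give the replicate and colours the group. Class II, B cell and erythroid values are lowest in tail-suspension replicates 1 and 3, and classical class I values range from -0.16 to 0.31 with no separation of the groups. Dendritic cell values are highest in tail-suspended hearts but rest on 4 genes. Of these, Flt3 and Cd209a were tested only through their signal in tail-suspended hearts.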

How the data were processed

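Total RNA from cardiac muscle of 3 sham and 3 tail-suspended mice was hybridised to 1-colour Agilent arrays. The authors deposited scanner files with intensities per spot (mean, background and processed, the last already background-corrected) from Agilent Feature Extraction 10.7.1.1, named in the submitters' processing notes, and a table of log2 values for the series. The columns of that deposited log2 table have nearly the same distribution (medians 4.331 to 4.332) and correlate with log2 processed intensity at r of at least 0.999087; how they were normalized is not given in the sources used here. Probe coordinates are those of the files (mm9).

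Control spots were left out. Log2 processed intensity minus each array's 75th percentile (301.6 to 376.3) was averaged over the spots of a probe, without outlier spots (146 to 212 per array; none was saturated). Probes well above background in at least 50% of their spots on every array of a group were tested, 28032 in all. Groups were compared with limma 3.58.1 in R 4.3.3 (lmFit, eBayes, no covariate) with Benjamini-Hochberg adjustment, and calls were made at 0.05. The study's methods name no array normalization, and their t-test was an alternative. The fit was tested on simulated data. Precision is limited by the 3 arrays per group: for a single value, an exact two-sided permutation test cannot give less than 0.1. A gene with several probes was read from the brightest tested probe; other probes are given for members, and for a list gene where only another probe passed. Values on every array were given for the classical class I and class II genes, Cd74, Ciita, B2m, Tap1, Tap2, Tapbp and every member probe past the threshold; from the pathway lists, up to 3 genes past the threshold per direction, and Psmb8, Psmb9, Nlrc5 and Irf1 whatever their values. Some genes of the lists are not reported here. The members and lists were chosen with earlier results of these data known. The names H2-Ke2, H2-Ea-ps and H2-Gs10 matched RefSeq only as older names, H2-T9 did not match, and 43 of 47 matched by symbol. All 6 arrays were on 1 slide and in 1 scan, with sham replicates 1 to 3 and tail-suspension replicate 1 in its row 1, and row 2 held the remaining tail-suspension arrays. Alternatives were 3 other normalizations, normexp background correction (offset 50), 2 filters, outlier spots kept, 2 other variance models, the t-test, blocks for replicate number and slide row, a 2-fold minimum, another probe of the gene and leaving out each array.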

Additional observations from a re-analysis of the deposited data

How the results depend on the processing

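The number of member probes that were higher was 1, and it was 0 with normexp background correction, with no filter on dim probes, with probes well above background on all 6 arrays, with the methods' t-test and with slide row as a block; leaving out 1 array gave 0 to 1. The number that were lower was 2, and it was 1 with quantile normalization, with the percentile over probes well above background on all arrays, with the authors' log2 values, with outlier spots kept, with probes well above background on all 6 arrays, with the replicate block and with a 2-fold minimum, 0 with no filter, with the t-test and with the slide row, and 9 with array weights; leaving out 1 array gave 0 to 9. The labels do not say that numbers shared by sham and tail-suspension replicates mark a common animal or batch. Correlations of same-numbered deviations were -0.02, -0.0176 and 0.0495, and those of other pairs ranged from -0.0809 to 0.104. With 3 arrays per group these values cannot exclude a common batch. In the fit with the replicate block H2-Q10 and H2-Ob passed and B2m did not (limma adjusted p = 0.1). Of pathway genes, 3 were higher and 2 lower. Those higher were 1 with quantile normalization, no filter and the replicate block, 6 with array weights, and 0 with the t-test, slide row and 2-fold minimum, and those lower were 5 with quantile normalization and the authors' values, 6 with the intensity trend, 9 with array weights and 0 with slide row and 2-fold minimum; leaving out 1 array gave 0 to 2 and 2 to 7. Over all tested probes, calls numbered 5706, and 497 (slide row) to 8820 (array weights, where 15.5% of tested probes were lower) in the alternatives on all arrays. The cause was not tested.

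All 8 class II probes stayed below 0 with the slide row, with the replicate block, with normexp, with quantile normalization, with the authors' values and without each array. Signs turned for Tap1 (0.05, 0.04, 0.007 and 0.142 without sham replicate 1, sham replicate 3, tail-suspension replicate 1 and tail-suspension replicate 3, and -0.192 at the lowest), Tap2 (-0.064 with the slide row, and -0.045 to 0.09 on leaving out 1 array), H2-K1 (-0.187 to 0.002 on leaving out 1 array, and 0.096 by its other probe) and H2-T24 (0.285 by one probe and -0.491 by the other).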
